A study of Mus musculus with 8 samples.

Results

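The genes described here are 10 members of the bone morphogenetic protein (BMP) pathway and its direct read-out: the ligands Bmp4 and Bmp6, the receptors Bmpr2, Acvrl1 and Eng, the inhibitory SMAD genes Smad6 and Smad7, and the target genes Id1, Id2 and Id3. They were picked by name, and all 10 were found among the 33027 genes of the matrix. Levels came from single-cell RNA sequencing of lungs of C57BL/6 mice that carried Sftpc-CreERT2, a tamoxifen-inducible recombinase driven by the surfactant protein C promoter of alveolar type II cells, and the Rosa26-mTmG reporter. All mice had received tamoxifen, and both groups carried the same alleles. Cigarette smoke (CS) mice breathed smoke of 3R4F research cigarettes for 10 months, and room air (RA) mice were littermates kept without smoke. There were 4 mice in each group, each mouse was 1 library, and 1 CS and 1 RA library shared each of 4 sequencing lanes. The cells were sorted on CD45 with magnetic beads and recombined as 10% CD45+ and 90% CD45- cells, so the makeup of the suspension was set by hand. Mice are given below in the order C2, C5, D2, D5 for CS and F1, F3, M1, M3 for RA. According to the study the CS mice developed emphysema, and lungs were taken the day after the last exposure. The study had reported on Id genes in endothelium of human chronic obstructive pulmonary disease (COPD). The question here is what the members did in mouse lung endothelium after 10 months of smoke.

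BMP ligands bind a complex of type I and type II receptors on the cell surface, and the type I receptor then phosphorylates receptor SMADs that enter the nucleus with Smad4. The Id genes are classical direct targets of these SMADs and encode inhibitors of bHLH transcription factors, while Smad6 and Smad7, targets as well, feed back to block the receptors. In endothelium the pathway runs largely through Acvrl1 (ALK1) and Bmpr2 with the co-receptor Eng, and inherited loss of these receptors is known from pulmonary arterial hypertension and hereditary haemorrhagic telangiectasia.

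A level is the mean over the cells of a type in a mouse of the transcripts per 10,000 of each cell. Levels are compared between cells and mice and not between genes. After removal of cells labelled multiplet or cell cycle, 40074 cells in 32 types were used, 20330 from CS and 19744 from RA lungs, as the deposited cell table gives them, and these numbers differ from the cell numbers stated by the study. Total transcript counts per library ran from 31094695 to 52753531. The endothelial types held 9988 general capillary (gCap, labelled EC_capillary_B), 4240 aerocyte (labelled EC_capillary_A), 730 arterial, 1665 venous and 512 lymphatic cells, with at least 24 cells in every mouse. Their names held against their markers: Gpihbp1 stood at 12.3 per 10,000 in gCap cells, Car4 at 27.5 in aerocytes, Gja5 at 1.51 in arterial, Slc6a2 at 15.9 in venous and Prox1 at 11.5 in lymphatic cells, each highest there, while the arterial marker Sox17 was highest in gCap and the venous marker Nr2f2 in lymphatic cells. In the CS libraries the sex-linked transcripts went against the labels: C2 and C5, labelled male, held Xist at 7.83 and 8.34 per 10,000, and D2 and D5, labelled female, held Ddx3y at 0.925 and 1.08. In the RA libraries they matched the labels: F1 and F3, labelled female, held Xist at 5.58 and 6.71, and M1 and M3, labelled male, held Ddx3y at 1.01 and 0.955. The exposure label is a field of its own. Labelled sex was used only in an alternative fit, which does not adjust for the sex the transcripts show, and no fit used the latter. Whether the sex labels or the C and D libraries were exchanged cannot be told apart here, and an exchange of libraries would change which CS and RA mice share a lane, on which the fits with lane as a block and the counts of lanes rest. Of all barcodes, 197 occurred in more than 1 library, with 1 to 14 shared by any pair.

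Most members were endothelial genes. Of the 22 cell types with enough cells for a test, the 4 blood vascular endothelial types held the highest mean levels of Bmpr2, Acvrl1, Eng, Smad6, Bmp6 and Smad7. For Smad7 the margin was narrow, with 2.97 in aerocytes against 2.92 in T cells. Bmpr2 was highest in gCap cells at 20.9 ± 4.58 (SD, n = 8 mice), against 2.29 in peribronchial fibroblasts, the highest type outside the endothelium. Acvrl1 was highest in aerocytes at 17.7 ± 1.97 and Eng in arterial cells at 15.3 ± 2.33. Outside the endothelium these receptors stood at 1.08 in adventitial fibroblasts for Acvrl1 and at 1.27 in peribronchial fibroblasts for Eng. In peribronchial fibroblasts the endothelial markers Pecam1, Cdh5, Cldn5 and Tie1 summed to 3.13 to 4.11 in CS and 2.81 to 6.39 in RA mice. Their part in the levels there was not tested. Smad6 was highest in arterial cells at 16.0 ± 2.82, and Smad7, which was also found in lymphocytes and fibroblasts, was highest there too at 5.85 ± 0.79.

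**Figure D1:**
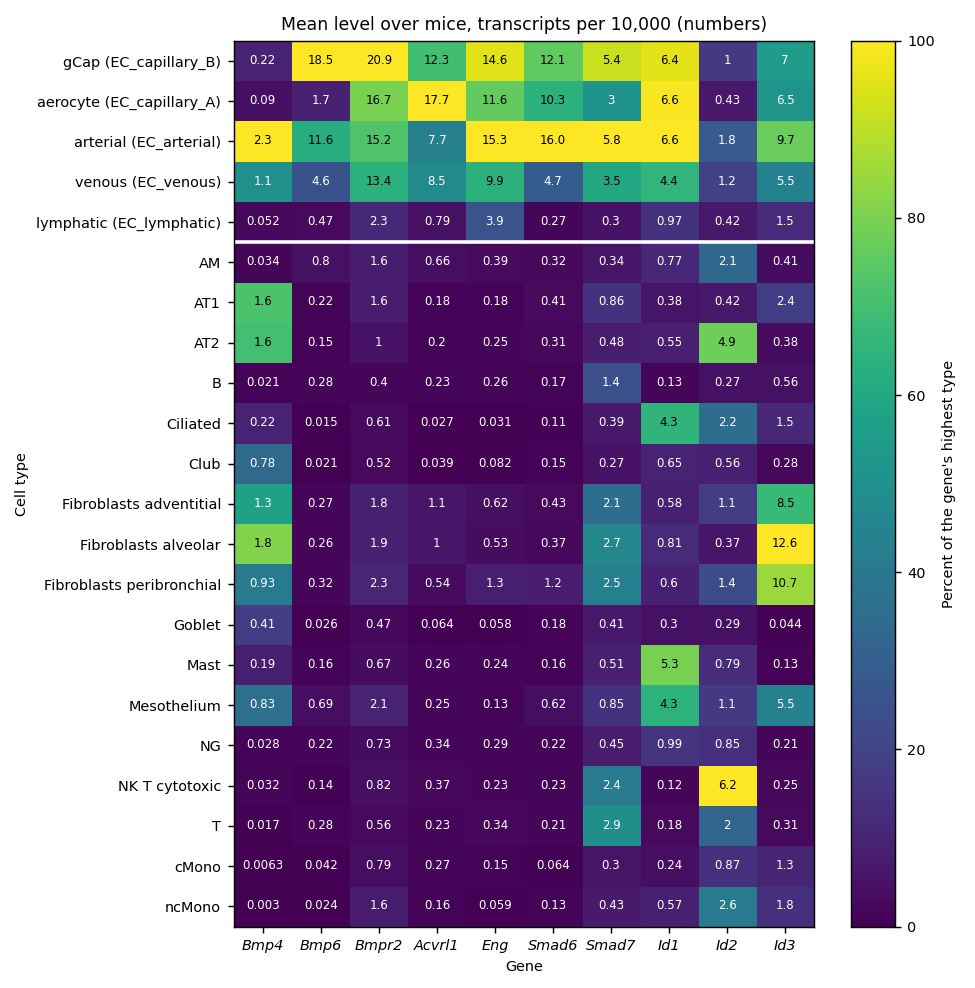
Mean level of each member over mice in the 22 cell types with enough cells, in transcripts per 10,000 (numbers), with the colour scaled within each gene as the percent of its highest type. The white line separates the 5 endothelial types above from the others. Bmpr2, Acvrl1, Eng, Smad6 and Bmp6 are bright only above it, Id3 is highest in alveolar fibroblasts and Id2 in cytotoxic NK and T cells.

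Bmp4 and the Id genes were spread more widely, while the ligand Bmp6 stood at no more than 0.80 outside the endothelium, in alveolar macrophages. Bmp6 was a gCap ligand at 18.5 ± 4.5, with 11.6 ± 3.25 in arterial and only 1.73 ± 0.49 in aerocyte cells, the other capillary type. Bmp4 was highest in arterial cells at 2.25 ± 0.51, close to its 1.83 in alveolar fibroblasts and 1.61 in alveolar type I cells, and stood at 0.22 ± 0.07 in gCap cells. Id1 was about level in arterial (6.63 ± 1.38), aerocyte (6.57 ± 1.04) and gCap cells (6.37 ± 1.64) and was also found in cells labelled mast (5.26) and in ciliated cells (4.35). Id3 was highest in alveolar fibroblasts at 12.6, ahead of 9.72 ± 1.08 in arterial cells. Id2 was highest in cytotoxic NK and T cells at 6.24 and in alveolar type II cells at 4.87, reached 1.79 ± 0.65 in arterial cells, and was lowest in B cells at 0.27.

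Within the endothelium the order of the types was tested within mice, neighbour by neighbour, for 40 pairs of types with an exact two-sided sign permutation test and Benjamini-Hochberg adjustment. Every member was lowest in lymphatic cells by its mean, but 11 of the 40 neighbouring pairs did not pass the threshold (adjusted p of 0.05 or more). For Id1 these were arterial against aerocyte (adjusted exact permutation p = 0.820) and aerocyte against gCap cells (0.713). For Id3 they were gCap against aerocyte cells (0.417), for Eng arterial against gCap cells (0.422), and for Bmpr2 aerocyte against arterial cells (0.101). In 25 of the pairs all 8 mice went the same way, with an exact permutation p of 0.00781, the smallest that 8 mice allow. Among them were Bmp6 in gCap over arterial cells by 6.95 ± 2.75 (SD, n = 8) and Acvrl1 in aerocyte over gCap cells by 5.37 ± 1.43. The remaining pairs that did not pass were Smad7 in arterial against gCap (0.312) and venous against aerocyte cells (0.0625), Id2 in venous against gCap (0.175) and aerocyte against lymphatic cells (0.691), Acvrl1 in venous against arterial cells (0.133) and Bmp4 in aerocyte against lymphatic cells (0.107).

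Genes with the most similar profile over the 17 cell types that had enough cells in all mice were looked up among 6433 genes as a description. Bmpr2 was most like Acvrl1 (Pearson r = 0.980), then Tmem100 (0.971), a transmembrane protein gene known as an endothelial BMP target, and Gata2 (0.968). Acvrl1 in turn was most like Tmem100 (0.985), and Eng most like Ramp2 (0.991) and Erg (0.988). Smad6 was closest to Zfp366 (0.990) and Ace (0.988), and Bmp6 to Clec14a (0.966) and Sox17 (0.964). Id1 and Id3 had looser neighbours, Gcc2 (0.916) for Id1 and Pkd1 (0.928) for Id3, and the best for Id2 was Nucb2 at 0.746. The points are cell types of the same 8 libraries, and the endothelial types weigh heavily in them.

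Against this background, 1 of the 9 members tested in gCap cells changed with smoke at an adjusted p under 0.05, and it was the type II receptor gene Bmpr2. Tests were made with limma on log2 of the per-mouse level plus 1, for every gene seen in 10% or more of the CS or of the RA cells, and p-values were adjusted over all these genes by the Benjamini-Hochberg method. The added 1 understates the change of genes at low levels. Of the 6556 genes tested in gCap cells, 10.3% were called and 6.28% were called as higher in CS, so that 1 in 9 members is near the share of all genes. That share moved with the fit: the count of 672 genes called was 0 with lane as a block, with no filter on genes or without D5, 29 without C2, 34 without F3, 39 without D2 and 1249 on summed counts. All CS mice lay above all RA mice for 2 of the 9 members and below for 1, unadjusted p fell under 0.05 for 4, near the 35.3% of all genes, and the median log2 difference of the members was -0.01, beside 0.01 over all genes tested. Bmp4 was found in too few gCap cells to be tested.

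The receptors come first. Bmpr2 (chr1:59763400-59879014 of GRCm38, plus strand) encodes the type II receptor shared by most BMP ligands. In gCap cells it stood at 26.2, 20.9, 25.1 and 26.9 per 10,000 in the CS mice and at 14.8, 17.2, 18.6 and 17.7 in the RA mice. The lowest CS mouse lay above the highest RA mouse, so that CS was higher in each of the 4 lanes. The means were 24.8 ± 2.66 and 17.1 ± 1.64 (SD, n = 4 each), a log2 difference of 0.51 ± 0.12 (SE) and a limma adjusted p of 0.0336. All CS mice lay above all RA mice for 13.6% of the genes tested in gCap cells, and below for 11.0%. Over 17 alternative fits the adjusted p ranged from 0.0227 to 0.129 and the log2 difference from 0.41 to 0.58. The fit on natural logs was left in its own units in this range. The call was lost in 8 of these fits. It was lost without C2 (adjusted p = 0.0952), D2 (0.0854), D5 (0.102), F3 (0.0787) or M3 (just above 0.05), with lane as a block (0.0792), with no filter on genes (0.129) and on the mean of per-cell natural logs (0.0557).

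The same direction was found for Bmpr2 in the other endothelial types, which come from the same 8 mice and so do not count as independent of gCap cells. In aerocytes the CS mice held 19.1, 18.3, 19.6 and 20.9 per 10,000 and the RA mice 10.2, 13.5, 16.9 and 15.1, with a log2 difference of 0.47 ± 0.14 (SE, limma adjusted p = 0.0946). In arterial cells the values were 18.1, 15.1, 16.6 and 18.8 in CS and 12.7, 13.6, 13.8 and 12.8 in RA, a difference of 0.35 ± 0.13 (0.242). In venous cells they were 16.2, 13.6, 13.3 and 16.4 in CS and 11.3, 11.6, 11.9 and 12.8 in RA, a difference of 0.30 ± 0.14 (0.327). The groups did not overlap in any of these 3 types, although none passed the adjusted threshold. Lymphatic cells held little Bmpr2, 2.37 to 3.06 in CS and 1.88 to 2.41 in RA, and the groups overlapped (0.25 ± 0.13, adjusted p = 0.561). For reference, all CS mice lay above all RA mice for 8.71% of genes tested in aerocytes, 4.32% in arterial and 5.87% in venous cells.

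**Figure D2:**
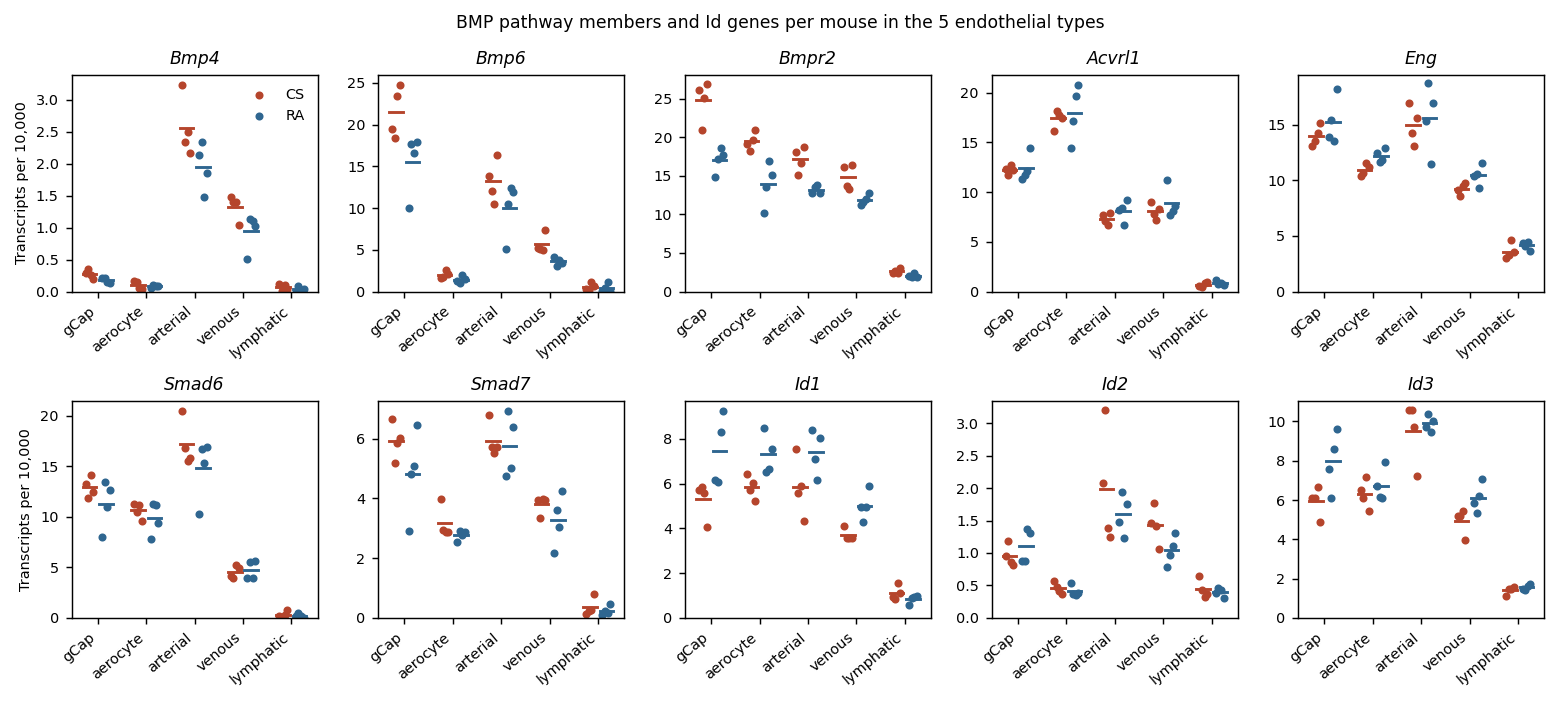
Level of each member in transcripts per 10,000 (y axes, starting at 0 and scaled to each gene) in the 5 endothelial types, with 1 point per mouse, CS in red and RA in blue, and a bar at the mean of 4 mice. In the Bmpr2 panel the red points lie above all blue points in gCap, aerocyte, arterial and venous cells, while in the Id1 panel they lie below all blue points in gCap, aerocyte and venous cells.

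Acvrl1 (chr15:101128522-101145336, plus strand), the type I receptor of endothelium for BMP ligands of the circulation, differed little. In gCap cells it ranged from 11.7 to 12.8 per 10,000 in CS and from 11.3 to 14.4 in RA mice, with a log2 difference of -0.01 ± 0.10 (SE, limma adjusted p = 0.938). Its differences in the other 4 types lay between -0.14 and -0.03, with groups that overlapped in each. Eng (chr2:32646595-32682669, plus strand), the co-receptor endoglin, was lower in every CS mouse than in every RA mouse in aerocytes, with 10.4, 10.7, 11.6 and 11.2 against 12.5, 11.7, 11.9 and 12.9. The difference of -0.15 ± 0.10 did not pass the test (adjusted p = 0.351). Such a separation was found for 7.1% of genes tested in aerocytes. In the remaining types Eng differed by between -0.18 and -0.04 on the log2 scale, and the groups overlapped.

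Among the ligands, Bmp6 (chr13:38345107-38500302, plus strand), which endothelium makes and which is known to drive hepcidin in the liver, was above all RA mice in every CS mouse in gCap and in venous cells. In gCap cells the CS mice held 19.5, 18.4, 23.5 and 24.8 per 10,000 and the RA mice 9.98, 17.7, 16.6 and 17.9. F1 stood far below the other RA mice, and the lowest CS mouse lay just above the highest RA mouse. The log2 difference was 0.47 ± 0.19 (SE, limma adjusted p = 0.109), and without F1 it was 0.28. In venous cells the values were 5.21, 5.07, 5.03 and 7.32 in CS and 4.19, 3.11, 3.76 and 3.46 in RA, the largest difference of any member in an endothelial type at 0.52 ± 0.14 (unadjusted p = 0.00252, adjusted 0.142). Here the gap did not rest on F1, which was the highest RA mouse. Differences in aerocyte (0.32 ± 0.12) and arterial cells (0.42 ± 0.22) came with groups that overlapped, the arterial one being 0.16 without F1, and Bmp6 was found in too few lymphatic cells to be tested.

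Bmp4 (chr14:46383520-46390669, minus strand), a ligand known from lung branching, could be tested in the arterial and venous types of the endothelium and not in its other 3. In arterial cells it was 3.23, 2.34, 2.50 and 2.17 per 10,000 in CS and 2.13, 2.33, 1.48 and 1.85 in RA mice, and in venous cells 1.48, 1.40, 1.39 and 1.03 against 0.505, 1.13, 1.10 and 1.02. CS was higher in all 4 lanes in both types, but the groups overlapped. The log2 differences were both 0.27, with limma adjusted p of 0.343 and 0.294, and the venous one was 0.15 without F1.

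The inhibitory SMAD genes showed no called difference. Smad6 (chr9:63953076-64022059, minus strand), which acts mainly against BMP receptors, stood at 13.2, 11.9, 14.1 and 12.5 per 10,000 in gCap cells of CS mice and at 8.04, 13.4, 11.0 and 12.6 in RA mice. Its log2 difference of 0.20 ± 0.15 (SE, limma adjusted p = 0.344) rested on F1 and was 0.06 without that mouse. Smad7, which also blocks TGF-beta receptors, stood at 6.64, 5.18, 5.86 and 6.01 against 2.91, 4.83, 5.09 and 6.44, a difference of 0.28 ± 0.17 (0.258) that was 0.11 without F1. In the other endothelial types the differences lay between -0.05 and 0.22 for Smad6, which was not tested in lymphatic cells, and between 0.05 and 0.19 for Smad7, and the groups overlapped in each. The highest of these, arterial for Smad6 and venous for Smad7, fell as low as 0.062 and 0.056 when a mouse was left out.

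Id1 (chr2:152736251-152737410, plus strand), the Id gene most tied to endothelial BMP signalling, lay on the other side from Bmpr2, with no call. In gCap cells the CS mice held 5.69, 5.84, 5.58 and 4.07 per 10,000 and the RA mice 6.14, 6.06, 8.31 and 9.26. All CS mice lay below all RA mice, by a narrow margin for F1 and F3, which held Xist, and a wide one for M1 and M3, which held Ddx3y. Of the CS mice, C2 and C5 (5.69 and 5.84) held Xist, and D2 and D5 (5.58 and 4.07) held Ddx3y. The part of sex in the difference was not tested. The means were 5.30 ± 0.83 and 7.44 ± 1.6, with a log2 difference of -0.41 ± 0.15 (SE) and a limma adjusted p of 0.0911. Id1 was called when counts were summed over cells (adjusted p = 0.0454) and by edgeR on rounded sums (0.0377), and not on the mean of per-cell natural logs (0.275). Over all 17 alternatives the adjusted p ranged from 0.0377 to 0.285 and the log2 difference from -0.59 to -0.20, with the fit on natural logs left in its own units.

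In aerocytes Id1 was 6.43, 5.71, 6.04 and 5.22 in CS and 8.49, 6.5, 6.65 and 7.55 in RA mice, without overlap, and the log2 difference was -0.27 ± 0.11 (limma adjusted p = 0.161). In venous cells it was 4.08, 3.56, 3.55 and 3.58 against 4.95, 4.27, 4.97 and 5.88, again without overlap, a difference of -0.35 ± 0.12 (0.205). Likewise 3.54% of genes had all CS below all RA mice in venous cells. In arterial cells it was 7.56, 5.56, 5.91 and 4.34 against 8.39, 7.11, 6.16 and 8.03, where C2 lay among the RA mice (-0.31 ± 0.16, adjusted p = 0.370). The arterial difference ran from -0.43 to -0.20 when each mouse was left out. Lymphatic cells differed in sign, with 0.921, 0.842, 1.54 and 1.09 in CS and 0.574, 0.869, 0.935 and 0.982 in RA mice (0.18 ± 0.13, adjusted p = 0.663). Leaving out each mouse, the lymphatic difference ran from 0.089 to 0.24. Every CS mouse lay below the RA mouse of its lane for Id1 in gCap, aerocyte, arterial and venous cells, which in all but arterial cells follows from the lack of overlap.

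Id3 (chr4:136143497-136145755, plus strand) lay near Id1 in gCap cells, with no call. There it stood at 6.09, 6.13, 6.64 and 4.87 per 10,000 in CS and at 7.57, 6.09, 8.61 and 9.60 in RA mice, and the groups overlapped through F3. M1 and M3 were again the highest RA mice. The log2 difference was -0.36 ± 0.14 (SE, limma adjusted p = 0.101). Venous cells held 5.19, 5.17, 5.44 and 3.94 against 5.87, 5.32, 6.19 and 7.06 (-0.26 ± 0.13, adjusted p = 0.370), where D2 alone of the CS mice passed the lowest RA mouse. In aerocytes Id3 was 6.51, 6.08, 7.20 and 5.46 against 6.72, 6.18, 6.09 and 7.96, and in arterial cells 10.6, 10.6, 9.70 and 7.24 against 9.74, 10.4, 9.49 and 10.0. Those differences were -0.08 ± 0.11 and -0.06 ± 0.14, within the spread of the mice. Lymphatic cells held 1.11, 1.46, 1.49 and 1.55 against 1.47, 1.43, 1.63 and 1.75 (-0.10 ± 0.12).

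Id2 (chr12:25093799-25097140, minus strand), known for its part in the development of innate lymphoid and NK cells, had no call. In gCap cells it was 0.954, 1.19, 0.862 and 0.821 per 10,000 in CS and 0.883, 0.879, 1.37 and 1.31 in RA mice, a log2 difference of -0.10 ± 0.09 (SE, limma adjusted p = 0.419). In venous cells it was 1.46, 1.77, 1.41 and 1.06 against 0.786, 0.972, 1.11 and 1.31, a difference of 0.25 ± 0.10 (0.302). The groups overlapped in both types. Arterial cells held 2.08, 3.20, 1.39 and 1.24 against 1.48, 1.95, 1.23 and 1.76, where C5 stood above the rest (0.16 ± 0.17). Aerocytes held 0.562, 0.476, 0.421 and 0.367 against 0.533, 0.361, 0.358 and 0.383, and lymphatic cells 0.648, 0.434, 0.322 and 0.368 against 0.378, 0.454, 0.435 and 0.299, and neither differed beyond its spread (0.05 on the log2 scale in both).

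**Figure D3:**
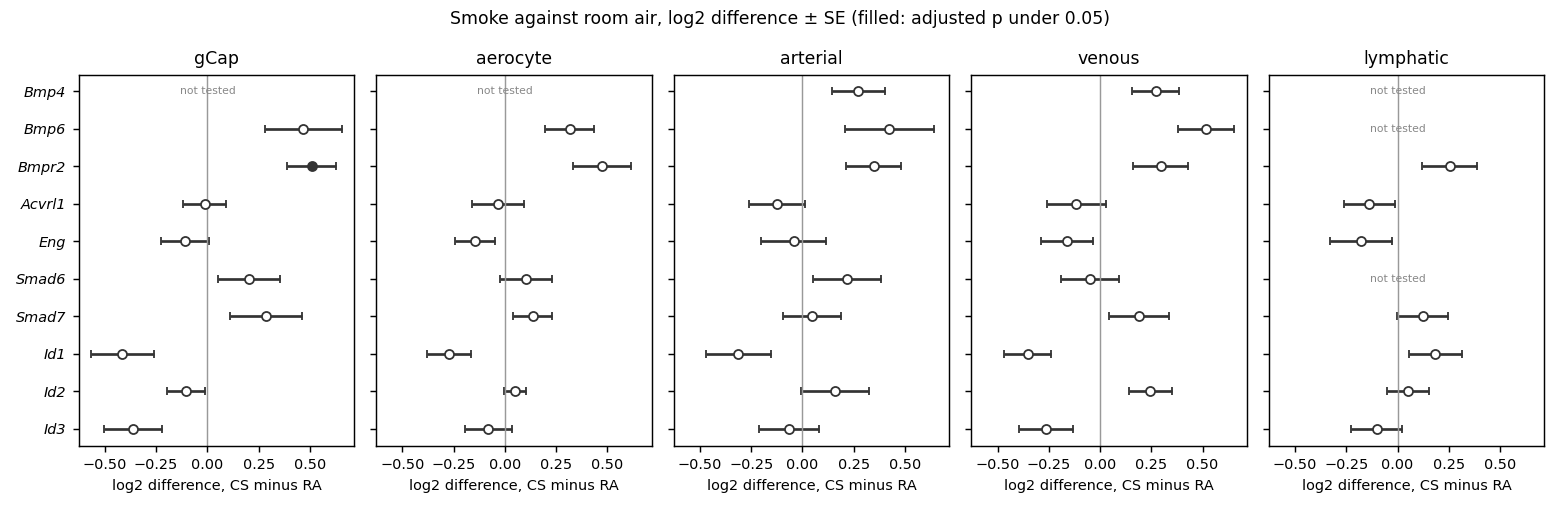
Log2 difference of CS minus RA (x axis, on the scale of transcripts per 10,000 plus 1) with its standard error for each member in the 5 endothelial types, from limma on 4 mice per group. Only Bmpr2 in gCap cells is filled, at 0.51; Bmpr2 and Bmp6 lie right of 0 in each type in which they were tested, and Id1 left of 0 in the 4 blood vascular types.

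No member was called in the other endothelial types. Of the genes tested, 1.96% were called in aerocytes, 0.669% in arterial cells, 0.13% in venous cells and 0.0% in lymphatic cells, where 0 of 8281 genes passed limma's adjusted threshold and 782 had an unadjusted p under 0.05. Unadjusted p fell under 0.05 for 3 of 9 members in aerocytes, beside 24.5% of all genes, and for 1 of 10 in arterial cells, beside 14.8%. It did so for 5 of 10 in venous cells, beside 15.3%, and for 0 of 7 in lymphatic cells, beside 9.44%. All CS mice lay below all RA mice for 4.55% of genes in arterial cells and for no member there.

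Whether smoke moved a member differently in gCap cells than in another endothelial type was tested on the within-mouse difference of the 2 types. None of 34 such comparisons passed an adjusted p of 0.05 in limma, and 5 had an unadjusted p under 0.05, beside 9.73% of all genes over these 4 fits. Over all genes, 0.0835% were called for gCap against aerocytes, 0.0787% against arterial, 0.14% against venous and 0.0% against lymphatic cells. The smallest p belonged to Id2, whose log2 difference was lower in gCap than in venous cells by 0.35 ± 0.07 (SE, unadjusted p = 0.000188, adjusted 0.101). For Id1 the effect in gCap cells lay below that in lymphatic cells by 0.60 ± 0.17 (adjusted p = 0.314), and for Id3 below that in aerocytes by 0.28 ± 0.08 (0.252). For Bmpr2 the gCap effect exceeded that in venous cells by 0.21 ± 0.08 (0.404) and that in aerocytes by 0.03 ± 0.08 (0.947).

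The wider pathway held 72 listed genes, of which 70 were analysed here. Of the 31 of these that could be tested in gCap cells, 1 was called, as higher in CS, a share below the 6.28% of all genes, and it was Acvr1 (chr2:58388644-58567157, minus strand), another type I receptor gene. It stood at 0.630, 0.702, 0.674 and 0.730 per 10,000 in CS and at 0.462, 0.469, 0.550 and 0.565 in RA mice, without overlap. The log2 difference was 0.16 ± 0.04 (SE, limma adjusted p = 0.0349), and it lost the call in 9 of 16 alternatives. Of the 3 signal SMAD genes tested in gCap cells, which carry the receptor signal, all 3 had a positive difference (median 0.14) and none was called. Of the 3 extracellular and membrane inhibitors tested 2 had a negative difference (median -0.19), and the 6 intracellular inhibitors had a median of 0.04, with none called in either list. Among the 4 receptors and co-receptors tested the median was 0.11, and among the 6 other target genes, Hey1, Tmem100, Msx1, Gata2, Cav1 and Aplnr, it was -0.03. None of the other BMP ligands was found in enough gCap cells to be tested. The TGF-beta arm had 5 genes tested and none called, and the 3 bHLH partners of Id proteins had a median of 0.25 and none called. Ldb2, the third gene of the human question, stood at 16.4, 17.1, 19.2 and 22.7 in CS and 9.98, 18.3, 19.2 and 16.9 in RA mice (0.24 ± 0.20, adjusted p = 0.384). In the other 4 endothelial types none of the 31 to 39 genes tested was called.

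Other transcripts moved with the groups in the same gCap cells. The 12 immediate-early and heat-shock genes known to respond to tissue digestion summed to 58.5 to 90.1 per 10,000 in CS and 113 to 154 in RA mice (exact permutation p = 0.0286, the smallest that 4 against 4 mice can give), and 5 of the 12, Jun, Junb, Atf3, Ier3 and Dusp1, were called lower, beside 3.97% of all genes. The 8 clock output genes analysed summed to 5.64 to 9.18 in CS and 2.62 to 4.49 in RA mice, with Dbp, Tef, Nr1d1 and Nr1d2 called higher, beside 6.28% of all genes. The 4 corticosteroid targets summed to 9.27 to 13.5 against 13.6 to 19.6, with Tsc22d3 called lower, and their sums in aerocytes and venous cells did not overlap either. Clock output did not overlap in aerocytes (4.12 to 7.65 in CS, 2.26 to 3.98 in RA) and in arterial cells (7.26 to 11.7 against 3.55 to 5.93), nor did the digestion response in venous cells (114 to 145 against 160 to 224). The 5 genes of the opposite clock phase summed to 1.11 to 1.54 in CS and 1.33 to 2.02 in RA gCap cells, with overlap, and to 0.965 to 1.73 against 1.88 to 2.83 in venous cells, without. The part of these transcripts in the differences of Bmpr2, Bmp6, Id1 and Id3 was not tested. The lists were chosen with earlier results of these data known, so their p-values and calls are given as a description.

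**Figure D4:**
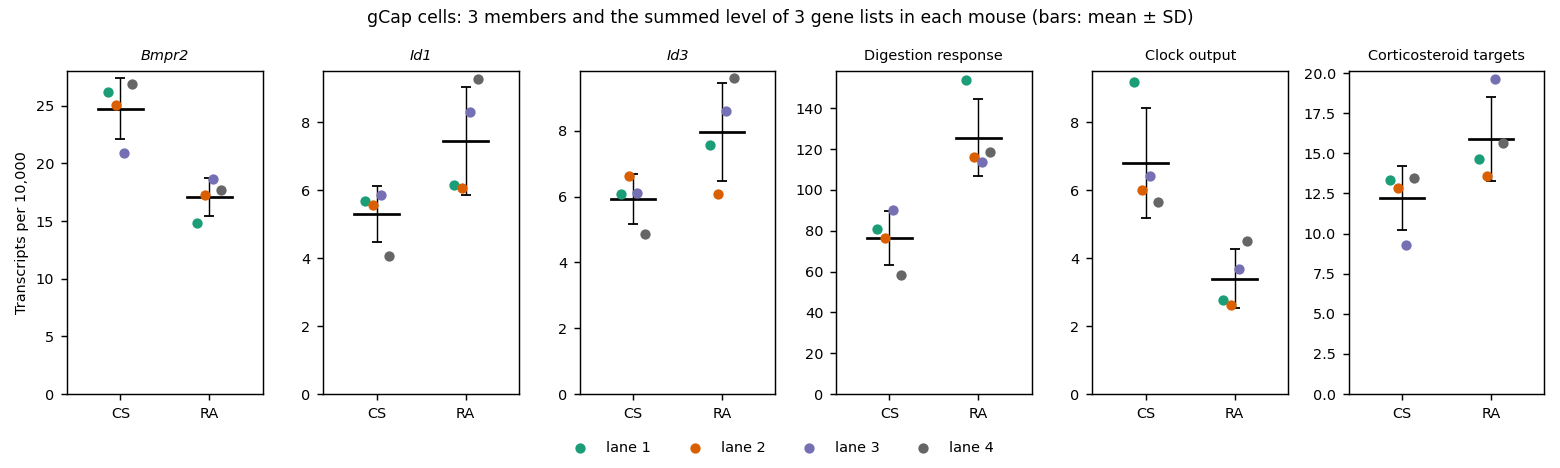
Level per mouse in gCap cells of Bmpr2, Id1 and Id3 and of the summed digestion response, clock output and corticosteroid target genes, in transcripts per 10,000 (y axes from 0), with points coloured by sequencing lane and bars at the mean ± SD of 4 mice. The CS and RA points do not overlap in any panel but that of Id3.

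Depth and markers of other cell types were as follows. Median counts per gCap cell were 3482 to 4925 in CS and 3024 to 5226 in RA mice, the lowest in F1, which also had the highest digestion response sum. Endothelial markers summed to 47.9 to 51.8 in CS and 49.7 to 54.3 in RA mice. Leukocyte markers summed to at most 0.14 and epithelial markers to at most 0.27 per 10,000 in any mouse. Mesenchymal markers summed to 0.0756 to 0.118 in CS and 0.109 to 0.191 in RA mice (exact permutation p = 0.0571), and their part in the differences was not tested. Abundant transcripts of other cells, such as surfactant, secretoglobin and haemoglobin genes, were higher: the 10 listed summed to 16.0 to 40.9 in CS and 15.1 to 41.6 in RA mice in gCap cells, and to as much as 108 in arterial cells of D2 and 139.6 in lymphatic cells of F3. Arterial cells numbered 84 to 173 in CS and 40 to 70 in RA mice (exact permutation p = 0.0286), so the RA means of arterial cells rest on fewer cells.

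Outside the endothelium the members gave 113 tests over 17 cell types, of which 0 passed limma's adjusted threshold, beside 0.925% of all genes called in these types. An unadjusted p under 0.05 was found for 30 of the 113, beside 14.2% of all genes. All CS mice lay above all RA mice in 6 of the 113 and below in 0, beside 5.79% and 4.47% of all genes. On the log2 scale with 1 added to the levels, the largest differences named here were those of Id1 and Id3 in ciliated cells of the airway. Id1 was 1.93, 5.05, 2.18 and 2.27 per 10,000 in CS and 5.31, 3.72, 6.99 and 7.32 in RA mice, a log2 difference of -0.86 ± 0.24 (SE, adjusted p = 0.0671), with C5 alone among the RA values. Id3 was 0.458, 1.31, 0.658 and 0.899 against 1.70, 1.06, 2.38 and 3.14, a difference of -0.72 ± 0.20 (0.0667). Both were lower in CS in all 4 lanes and were called with lane as a block (adjusted p = 0.0448 and 0.0378). They were also called without C5 (0.0126 and 0.0497) and without F3 (0.0489 and 0.0295). Over 17 alternatives Id1 ran from -1.09 to -0.44 and Id3 from -1.40 to -0.29, with the fit on natural logs left in its own units. The adjusted p of these fits reached 0.22 for both genes. M1 and M3, which held Ddx3y, were the highest RA mice for both genes, and the part of sex was not tested. In ciliated cells corticosteroid targets summed to 0.884 to 0.943 in CS and 1.04 to 1.44 in RA mice, without overlap. With overlap, clock output summed to 5.07 to 5.86 against 3.20 to 5.37 and the digestion response to 49.1 to 120 against 85.5 to 128, and the part of these transcripts was not tested.

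Smad7 was higher in every CS mouse than in every RA mouse in alveolar fibroblasts, peribronchial fibroblasts and T cells. These pairs, and those of Acvrl1, Id2 and Smad6 without overlap below, are the 6 of 113 given above. Their share was near the 5.79% of all genes. In alveolar fibroblasts Smad7 was 3.12, 3.23, 3.18 and 3.05 against 2.0, 2.45, 1.91 and 2.64 per 10,000, with a log2 difference of 0.36 ± 0.10 (SE, limma adjusted p = 0.0727). It was called with the 25% filter (0.0457), on summed counts (0.0496) and by edgeR (0.0474). In T cells it was 3.41, 3.37, 3.50 and 3.29 against 2.31, 2.63, 2.56 and 2.26, a difference of 0.35 ± 0.08 (0.141). The CS values lay close together in both types. Peribronchial fibroblasts had 3 mice per group with enough cells, at 2.69, 2.90 and 3.96 against 2.43, 1.35 and 1.87 (0.54 ± 0.22, adjusted p = 0.492). With so few mice, 580 of the 7247 genes tested there had all CS above all RA mice. In alveolar fibroblasts corticosteroid targets summed to 7.29 to 11.0 in CS and 15.6 to 21.8 in RA mice, and clock output to 9.92 to 15.2 against 2.81 to 9.20. In peribronchial fibroblasts these sums were 6.15 to 7.49 against 11.4 to 15.5 and 11.6 to 14.1 against 4.06 to 8.14. In T cells the digestion response summed to 31.1 to 33.4 against 38.2 to 48.5 and clock output to 2.27 to 2.44 against 1.76 to 2.11. None of these ranges overlapped. The digestion response overlapped in alveolar (125 to 200 against 128 to 195) and peribronchial fibroblasts (195 to 224 against 195 to 303). Corticosteroid targets overlapped in T cells (5.03 to 7.38 against 6.01 to 12.5). Endothelial markers in T cells summed to 3.25 to 5.29 in CS and 2.48 to 3.66 in RA mice, with overlap, and the part of all these transcripts was not tested.

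Acvrl1 in alveolar macrophages was 1.13, 0.81, 1.22 and 0.66 per 10,000 in CS and 0.62, 0.44, 0.21 and 0.22 in RA mice, again without overlap (0.51 ± 0.13, limma adjusted p = 0.0931). It was called with lane as a block (0.0461) and without D5 (0.0454). The ratio of its CS mean to its RA mean was 2.56, beside 0.490 for Id1 and 0.402 for Id3 in ciliated cells. The endothelial markers summed to 2.46 to 3.77 in CS and 0.830 to 2.51 in RA macrophages, with overlap, and their part was not tested. Id2 in alveolar type II cells was 6.16, 6.41, 5.27 and 4.51 against 3.92, 4.41, 4.09 and 4.22, where the groups did not overlap but D5 lay just above F3 (0.34 ± 0.11, adjusted p = 0.591). Corticosteroid targets summed to 2.07 to 2.62 in CS and 3.25 to 3.97 in RA alveolar type II cells and clock output to 3.89 to 6.65 against 2.14 to 4.77, and their part was not tested. Smad6 in peribronchial fibroblasts was 1.39, 1.22 and 1.77 against 0.95, 1.10 and 0.91 (0.30 ± 0.19, adjusted p = 0.651), and its sign turned when counts were summed over cells. Endothelial markers in these fibroblasts summed to 3.13 to 4.11 in CS and 2.81 to 6.39 in RA mice, and their part was not tested. Id1 in alveolar fibroblasts was 0.39, 0.59, 0.86 and 0.57 against 1.02, 0.88, 0.77 and 1.38, with overlap (-0.33 ± 0.10, adjusted p = 0.0988).

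**Figure D5:**
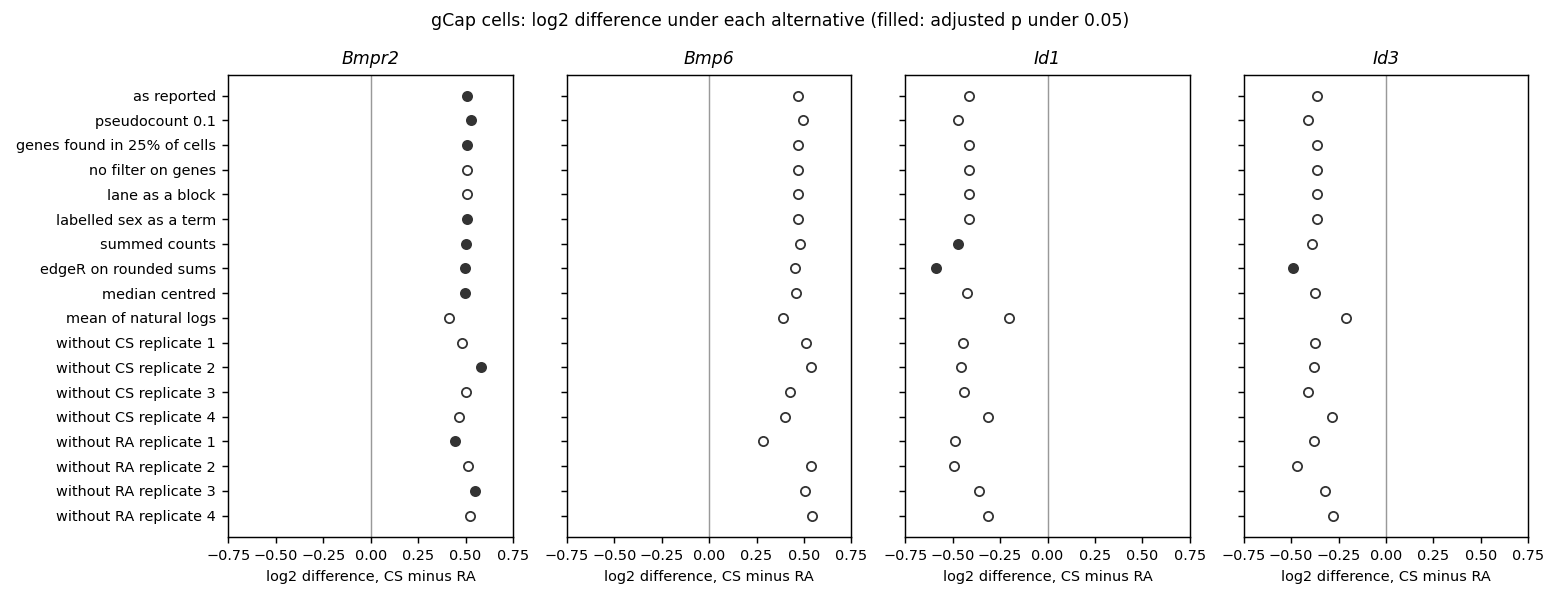
Log2 difference of CS minus RA in gCap cells for Bmpr2, Bmp6, Id1 and Id3 (x axes) under the reported fit and each of 17 alternatives (rows), filled where the adjusted p is under 0.05. The row of the mean of natural logs is in natural-log units. The sign is the same in each row of all 4 panels, Bmpr2 is filled in 9 alternatives, Id1 in 2, Id3 in 1 and Bmp6 in none.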

How the data were processed

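Single-cell RNA libraries of 8 mouse lungs, 4 CS and 4 RA, were analysed. The authors aligned reads with STAR 2.7.3a, added spliced and unspliced molecules, filtered cells and removed free RNA. The deposited matrix holds the resulting expected counts, of which 1.28% were whole numbers within a tolerance of 1e-06. The deposited cell table gives each cell's mouse, the cell type named by the authors and the percent of mitochondrial transcripts. Cells the authors labelled multiplet (1025) or cell cycle (7) were left out, and no further doublet caller was run.

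Each cell was scaled to 10000 transcripts and averaged per mouse and type. A mouse needed at least 20 cells of a type and a type 3 mice in each group. Levels plus 1 were taken to log2 and tested with limma 3.58.1 in R 4.3.3, per type, for all genes found in 10% or more of the cells of CS or RA lungs, with Benjamini-Hochberg adjustment over those genes and a threshold of 0.05. The mouse was the replicate, so p-values measure the spread between mice. Single values were compared with two-sided exact permutation tests, for which 4 against 4 mice allow no p below 0.0286. The same fit on the within-mouse difference of 2 types tested whether the effect of smoke differed between them. Scripts were tested on simulated data. Alternatives were a pseudocount of 0.1, a 25% filter, no filter, lane as a block, labelled sex as a term, counts summed over cells, edgeR 4.0.16 on summed counts rounded to whole numbers, median centring, the mean of natural logs and leaving out each mouse. The difference of the mean of natural logs was kept in natural-log units and was not turned into log2. Other calculations used Python 3.11.15 with pandas 2.3.3 and scipy 1.17.1.

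All 10 members are named, with every mouse's value where a member was called or is an Id gene in an endothelial type, and genes of the wider lists are named where called. Values of uncalled wider-list genes and per-mouse values of other members were added after seeing them. Members and lists were chosen with earlier results of these data known. Coordinates are those of GRCm38 in GENCODE. Bmp10, Cer1 and Per3 were not analysed here, and Smad7 is given without coordinates. Removal of free RNA lowers, but need not clear, transcripts of other cells.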

Additional observations from a re-analysis of the deposited data

Results flagged for a closer look

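In 10 of 104 groups of 4 mice, the lowest or highest mouse stood apart from the other 3 by more than Dixon's 95% critical value for 4 samples. Chance alone gives about 1 in 20 such groups, and the types share mice. In gCap cells, CS mouse D5 held Id1 at 4.07 per 10,000 where the remaining CS mice lay between 5.58 and 5.84, and without D5 the log2 difference was -0.31. RA mouse F1 held Bmp6 at 9.98 in gCap cells against 16.6 to 17.9, and without F1 the difference was 0.28. F1 also held Id2 at 0.533 in aerocytes against 0.358 to 0.383.

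Smad7 stood apart in 4 groups of CS mice. C2 was at 3.97 in aerocytes against 2.89 to 2.93, and at 6.79 in arterial cells against 5.52 to 5.72. C5 was at 3.35 in venous cells against 3.93 to 3.98, and D5 at 0.813 in lymphatic cells against 0.144 to 0.246. In venous cells C2 held Id1 at 4.08 against 3.55 to 3.58, still below every RA mouse, and D5 held Bmp6 at 7.32 against 5.03 to 5.21. In ciliated cells C5 held Id1 at 5.05 against 1.93 to 2.27.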

How the results depend on the processing

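The count of members called in gCap cells was 1, and it was 0 with no filter on genes, with lane as a block and on the mean of natural logs, 2 on summed counts (Bmpr2 and Id1) and 3 by edgeR (Bmpr2, Id1 and Id3). Leaving out each mouse in turn gave 0 to 1, with 0 without C2, D2, D5, F3 or M3. In aerocytes the count was 0, and 0 to 1 when a mouse was left out, the 1 being Bmpr2 without M1. In arterial, venous and lymphatic cells, and for the difference of the effect between types, it was 0 under each alternative run. In the other 17 types the count of 0 became 1 with the 25% filter, on summed counts and by edgeR (Smad7 in alveolar fibroblasts), 1 with labelled sex (Id1 in ciliated cells), 3 with lane as a block (these cells' Id1 and Id3, and Acvrl1 in alveolar macrophages), and 0 to 2 when a mouse was left out.

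Of 911 alternatives of 54 log2 differences, 863 kept the direction and the side of the threshold, 16 were newly called, 8 lost the call and 24 turned, in 12 differences none of which had been called. The turned values were 0.013 for Id3 in aerocytes on natural logs, 0.0053 for Smad6 in venous cells and 0.00038 for Acvrl1 in lymphatic cells on summed counts, -0.058 on summed counts and -0.16 by edgeR for Id2 in lymphatic cells, and -0.057 and -0.18 for Smad6 in peribronchial fibroblasts. Leaving out each mouse, Acvrl1 ran from -0.051 to 0.056 in gCap cells and from -0.13 to 0.037 in aerocytes. In arterial cells Id2 ran from -0.023 to 0.28, Id3 from -0.12 to 0.048, Smad7 from -0.029 to 0.13 and Eng from -0.17 to 0.046. Smad6 in venous cells ran from -0.12 to 0.021, and in lymphatic cells Id2 ran from -0.017 to 0.089 and Smad7 from -0.025 to 0.21. The cause of these changes was not tested. The lanes pair 1 CS with 1 RA mouse, and the replicate numbers pair nothing. Lymphatic and arterial values rest on as few as 24 and 40 cells in a mouse.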

Other observations

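The spread of single gCap cells was looked at after the differences of the means were known, for 4 genes picked for those differences. The quantiles come from the same cells and mice as the means, so they are given as a description with no test. For Bmpr2 the 25th percentile of a mouse's cells was 11.8 to 16.4 per 10,000 in CS and 6.32 to 10.4 in RA mice, the median 19.1 to 25.4 against 12.6 to 17.4, and the 95th percentile 44.3 to 54.4 against 35.4 to 39.4. The ratio of the group means was 1.66 at the 25th percentile and 1.34 at the 95th. Quantiles of single cells also hold the spread that comes from counting transcripts, and its part in this contrast was not tested. The ratios therefore do not show whether cells with low or high Bmpr2 differed more.

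For Id1 the median was 2.65 to 4.48 in CS and 3.41 to 6.38 in RA mice, with overlap, and the 25th percentile was 0 in the lowest mouse of each group. The 75th percentile was 6.17 to 8.62 against 8.81 to 14.3 and the 95th percentile 12.9 to 17.8 against 18.6 to 28.6, without overlap. For Id3 the groups overlapped at each of the 4 quantiles, with a 25th percentile of 1.28 to 2.56 against 0 to 3.56, a median of 3.69 to 5.22 against 5.09 to 7.56, a 75th percentile of 7.12 to 9.87 against 8.84 to 13.5 and a 95th percentile of 14.9 to 18.7 against 17.2 to 25.03. For Bmp6 the 25th percentile was 7.16 to 10.2 against 2.58 to 7.82, the median 14.8 to 20.2 against 6.61 to 14.8, the 75th percentile 26.3 to 34.6 against 13.7 to 24.9 and the 95th percentile 47.4 to 61.5 against 32.0 to 49.5. Low quantiles of a gene at the level of Id1 rest on cells with no or 1 transcript.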
